A study of Rattus norvegicus with 12 samples.

Results

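Foxm1 (ENSRNOG00000005936) is 1 of the 32754 genes in the count tables, and it was taken by its identifier. It was selected on its levels in these same libraries, so the levels and differences of Foxm1 below are a description with no test. RCS is a chondrocyte line from the Swarm rat chondrosarcoma. WT RCS and FGFR3/4KO RCS, a line grown from 1 clone in which CRISPR/Cas9 disrupted the FGF receptors FGFR3 and FGFR4, were kept overnight in medium with adult bovine serum. They received either FGF18 or the serum medium alone (vehicle, called untreated in the labels). The 4 groups of WT vehicle, WT FGF18, FGFR3/4KO vehicle and FGFR3/4KO FGF18 hold 3 biological replicates each, which makes 12 QuantSeq 3′ mRNA libraries. The dose of FGF18 is 50 µg/ml in the labels and 50 ng/ml in the study's methods. As the knockout line is 1 clone, the loss of the receptors and other features of that clone cannot be told apart.

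FOXM1 is a forkhead transcription factor of dividing cells. Its transcript rises as cells leave G1, the protein is activated by phosphorylation from cyclin-dependent kinases, and it then drives genes needed for G2 and mitosis, among them Aurkb and Cenpf. At many of these promoters it works with the MuvB complex and B-MYB at a short element called CHR. In cartilage, FGF signaling through FGFR3 is known as a brake on chondrocyte division, and FGF arrests RCS cells in culture.

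Levels are given as CPM, the reads of a gene scaled to a common total of reads on genes, after TMM normalization. Reads on genes ranged from 373964 to 1196647 per library, and 3 reads stand for 2.51 to 8.02 CPM. The share of all reads that fell on genes was 12.5% to 14.5% in the 6 WT libraries and 17.0% to 18.8% in the 6 FGFR3/4KO libraries. The share left out for low alignment quality was 77.0% to 79.8% and 71.2% to 74.6%. Both shares separated the genotypes without overlap, and their part in the differences between genotypes was not tested. Among chondrocyte genes, Sox9, the master regulator of the lineage, had 531 to 2319 reads per library and Col11a2, a cartilage collagen, 368 to 956. Other chondrocyte genes had few reads, with 1 to 22 for Chad and 0 to 9 for Epyc. Of the fibroblast and bone markers with a symbol, Col1a1 had 0 to 18 reads, Lum 0 to 3, Mepe 0 to 2, Phospho1 0 to 12 and Thy1 6 to 19. Col2a1, Acan, Fgfr3 and Fgfr4 were not analysed here by name, since symbols were at hand for 1998 identifiers.

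In WT RCS with vehicle, Foxm1 stood at 142 CPM, 122 CPM and 138 CPM in replicates 1, 2 and 3. With FGF18 it stood at 31.97, 40.2 and 39.4 CPM. Every WT FGF18 library was thus below every WT vehicle library. In the knockout line the vehicle libraries held 213, 261 and 182 CPM, and the FGF18 libraries 212, 170 and 195 CPM. These last 2 groups overlapped, and all 6 FGFR3/4KO libraries lay above all 6 WT libraries.

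The group means were 218 ± 39.6 CPM in FGFR3/4KO vehicle, 193 ± 21.2 in FGFR3/4KO FGF18, 134 ± 10.4 in WT vehicle and 37.2 ± 4.54 in WT FGF18 (SD, n = 3 each). In that order, the libraries of the first 2 groups overlapped, and those of the other neighbours did not. The values rest on 90 to 138 Foxm1 reads in each library of WT vehicle, 32 to 42 in WT FGF18, 92 to 166 in FGFR3/4KO vehicle and 161 to 212 in FGFR3/4KO FGF18. The lowest library, WT FGF18 replicate 1 with 39 reads, has an exact 95% Poisson interval of 22.7 to 43.7 CPM. The highest, FGFR3/4KO vehicle replicate 2 with 92 reads, has one of 210.1 to 319.6 CPM and comes from the smallest of the 12 libraries. These intervals cover counting error only and hold no variation between replicates. No molecular identifiers mark which reads are copies of 1 molecule, so copies could make the intervals too narrow. In bulk RNA, fewer cells that express Foxm1 and less Foxm1 RNA per cell cannot be told apart.

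**Figure D1:**
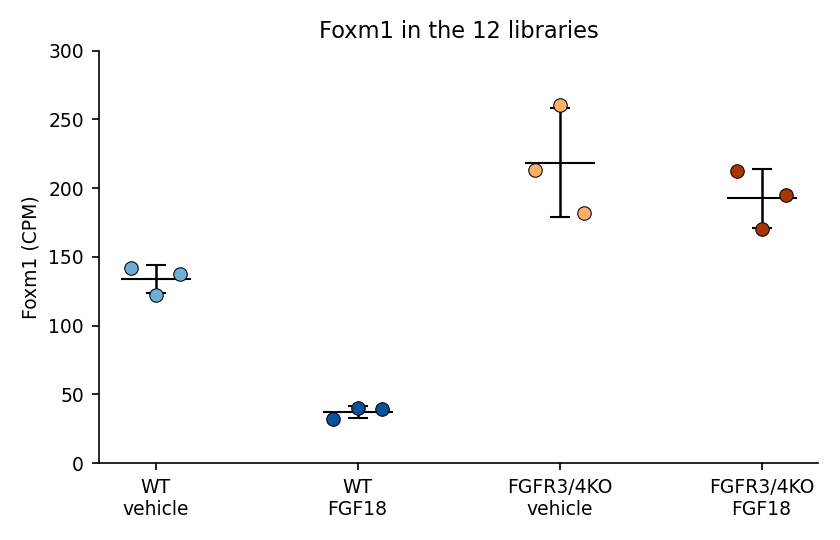
Foxm1 in CPM (y axis) in each of the 12 libraries, by genotype and treatment (x axis); points are libraries, the wide bars are group means and the error bars SD over 3 replicates. The 3 WT FGF18 libraries lie at 31.97 to 40.2 CPM, below all others, and the FGFR3/4KO libraries lie at 170 to 261 CPM with either treatment.

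In the model of all libraries, Foxm1 was lower with FGF18 by a log2 difference of -1.86 in WT RCS (standard error 0.19), or 3.63-fold. Of the 7378 genes tested, 48 had a lower value in this comparison. In FGFR3/4KO RCS the log2 difference was -0.16 (standard error 0.15), and 2089 genes had a lower value. The difference between these effects was 1.70 (standard error 0.24). With vehicle, the FGFR3/4KO line exceeded WT RCS in Foxm1 by 0.67 (standard error 0.16), a fold of 1.60, and 772 genes had a higher value. With FGF18 it was higher by 2.37 (standard error 0.18), a fold of 5.18, and 27 genes had a higher value. The medians over all genes tested lay between -0.03 and 0.02 in these comparisons, on the same log2 scale. Without FGFR3/4KO vehicle replicate 2 the log2 difference with FGF18 in FGFR3/4KO RCS was -0.02, and without FGFR3/4KO vehicle replicate 3 it was -0.27.

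The genes that carry cells through mitosis were lower with FGF18 in WT RCS. The gene lists here and below were drawn up with earlier results of these data known, so their counts are not an independent test. Of 56 genes on a list of mitosis genes, 16 had a symbol and 14 had enough reads to be tested. With FGF18, 13 of these 14 fell in the WT line (edgeR's quasi-likelihood test, Benjamini-Hochberg adjusted p under 0.05), and none rose. Over all genes tested, 12.8% fell and 12.9% rose. The median log2 difference of the 14 genes was -1.31, and each of the 14 values was below 0. Cdk1, the kinase that starts mitosis, stood at 82.6, 68.0 and 77.0 CPM with vehicle and at 28.7, 22.96 and 30.8 CPM with FGF18 in WT RCS. In the knockout line its vehicle libraries held 90.4, 102 and 85.5 CPM, and its FGF18 libraries 85.7, 87.7 and 81.1 CPM. The WT FGF18 libraries of Cdk1 thus lay apart from all 9 others, as they did for Foxm1. Its log2 difference in WT RCS was -1.47 (standard error 0.20, edgeR's quasi-likelihood adjusted p = 2.21e-06).

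Spc25, a subunit of the NDC80 complex that ties chromosomes to microtubules, fell by 1.51 on the log2 scale (standard error 0.15, edgeR's quasi-likelihood adjusted p = 3.08e-08). It lay between 234 and 277 CPM in WT vehicle libraries, between 84.2 and 92.4 in WT FGF18 libraries and between 234 and 319 in all FGFR3/4KO libraries. Ncapg2, a condensin subunit, fell by 1.62 (adjusted p = 1.14e-05 in the same test), and Kif18a, a kinesin that sets the length of kinetochore microtubules, by 1.63 (adjusted p = 0.0015 in the same test). Cenpf, a kinetochore protein and a known FOXM1 target, fell by 1.09 (adjusted p = 9.12e-06 in the same test). Aurkb, the kinase of the chromosomal passenger complex, had the lowest value of the list at -1.76 (standard error 0.44, edgeR's quasi-likelihood adjusted p = 0.0039). Its reads were few, 11 to 16 in each library of WT vehicle and 3 to 9 in each of WT FGF18. Ercc6l, a DNA translocase of mitotic chromosomes, fell by 1.54 (adjusted p = 0.0070 in the same test), a call that was lost without WT vehicle replicate 2 (adjusted p = 0.054). The gene that did not pass was G2e3, named after its value was seen, at -0.83. The Foxm1 value of -1.86 (standard error 0.19), on which the gene was selected, was lower than each of the 14. Its value plus or minus the standard error overlapped that of Aurkb and of other members.

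The CHR element is shown here because promoters of mitosis genes carry it and FOXM1 acts there with its partners. RefSeq promoter windows of build GRCr8 run from 250 bases before to 50 bases after a start site, and 13 of the 14 mitosis genes have one. The element was searched as TTTGAA or TTCGAA on both strands. It was found in 9 of the 13 windows (69.2%) and in 19.7% of all 33469 windows. The stretches below come from Cdk1, Spc25, Kifc1 and Cenpf, the first 3 of which are among the genes most like Foxm1 described further on. Each is printed 5′ to 3′ on the strand of its gene, with the element or its reverse complement in capitals.
Cdk1, chr20:19265250-19265309, plus strand: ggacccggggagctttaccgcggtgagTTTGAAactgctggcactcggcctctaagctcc
Spc25, chr3:74396743-74396802, minus strand: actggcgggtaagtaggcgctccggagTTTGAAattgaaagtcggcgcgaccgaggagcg
Kifc1, chr20:5000880-5000939, plus strand: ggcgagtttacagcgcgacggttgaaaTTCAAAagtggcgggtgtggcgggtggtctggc
Cenpf, chr13:103760852-103760911, minus strand: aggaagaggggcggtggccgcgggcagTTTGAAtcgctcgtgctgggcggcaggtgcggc

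The element begins 16 bases before the start site in Cdk1, 57 before it in Spc25 and 22 before it in Kifc1. Cdk1 holds another copy 72 bases before the start. The windows of Cdk1, Spc25, Kifc1 and Cenpf also hold the CCAAT box, searched as CCAAT on both strands, in 3, 2, 2 and 3 copies. That box was in 7 of the 13 mitosis windows (53.8%) and in 37.5% of all windows. A forkhead site, searched as TGTTTA on both strands, was in 4 of the 13 (30.8%) and in 13.7% of all windows. An E2F site (TTTGGCGC, TTTCCCGC, TTTGCCGC or TTTCGCGC on both strands) was in 2 of them (15.4%) and in 2.14% of all windows. The letters alone do not show that a factor binds there.

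Genes of S phase were lower with FGF18 in WT RCS as well. Of 58 genes on a list of S phase genes, 21 had a symbol and 18 passed the filter, and 17 of the 18 fell (edgeR's quasi-likelihood test, adjusted p under 0.05), where 12.8% of all genes tested fell. The median log2 difference was -1.07 and each of the 18 values was below 0. Chaf1b, a subunit of the chromatin assembly factor that places histones behind the fork, fell by 1.41 (standard error 0.18, edgeR's quasi-likelihood adjusted p = 1.67e-06), with 128 ± 7.04 CPM without and 48.4 ± 6.72 CPM with FGF18 (SD, n = 3 each). Rfc3, a subunit of the clamp loader, fell by 1.29 (adjusted p = 1.12e-06 in the same test), from 470 ± 22.4 to 192 ± 18.7 CPM (SD, n = 3 each). Brca2, which acts in the repair of DNA breaks, fell by 1.45, and Asf1b, a histone chaperone, by 1.17 (adjusted p of 0.0015 and 3.76e-04 in the same test). Dtl, a substrate receptor of the CRL4 ubiquitin ligase, fell by 1.27, a call lost without WT vehicle replicate 3 (adjusted p of 0.0058 with it and 0.065 without it in the same test). Cdc7, the kinase that fires origins, fell by 1.24, a call lost without WT vehicle replicate 2 or 3 or without WT FGF18 replicate 1 or 2 (adjusted p of 0.023 with all libraries and 0.077 to 0.13 without them in the same test). The CHR element was in 6 of 17 S phase windows (35.3%, against 19.7% of all windows) and the E2F site in 7 (41.2%, against 2.14%). The CCAAT box was in 9 of the 17 (52.9%, against 37.5%) and the forkhead site in 0 (against 13.7%).

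In FGFR3/4KO RCS none of the 32 mitosis and S phase genes passed the test of FGF18 against vehicle. The lowest adjusted p among them was 0.755 (edgeR's quasi-likelihood test), 1 gene had an unadjusted p under 0.05, and no alternative test or left-out library gave a call. Over all genes tested the share called was 0% in either direction, with 478 genes at an unadjusted p under 0.05. The likelihood-ratio test of edgeR called 3 of all genes and DESeq2 called 0. Of the 32 values, 16 lay above 0 and 16 below, with a median of 0.00 and a range from -0.74 to 0.80. The effect of FGF18 differed between the genotypes for 20 of the 32 genes, all 20 with a higher value in FGFR3/4KO RCS (edgeR's interaction test, adjusted p under 0.05). Over all genes tested, 5.91% had a higher and 4.96% a lower interaction. The interaction was above 0 for each of the 32 genes, with a median of 1.26. It was 1.42 for Spc25 (standard error 0.21, edgeR's quasi-likelihood adjusted p = 3.69e-05) and 1.60 for Rfc3 (standard error 0.23, edgeR's quasi-likelihood adjusted p = 2.99e-05). For Aurkb it was 2.09 (standard error 0.62, edgeR's quasi-likelihood adjusted p = 0.027), a call lost without any 1 of WT vehicle replicate 2, WT FGF18 replicate 2, FGFR3/4KO vehicle replicates 1 and 3 and FGFR3/4KO FGF18 replicates 1 and 2 (adjusted p up to 0.075). These comparisons share the WT vehicle and WT FGF18 libraries, so their counts are not separate pieces of evidence.

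**Figure D2:**
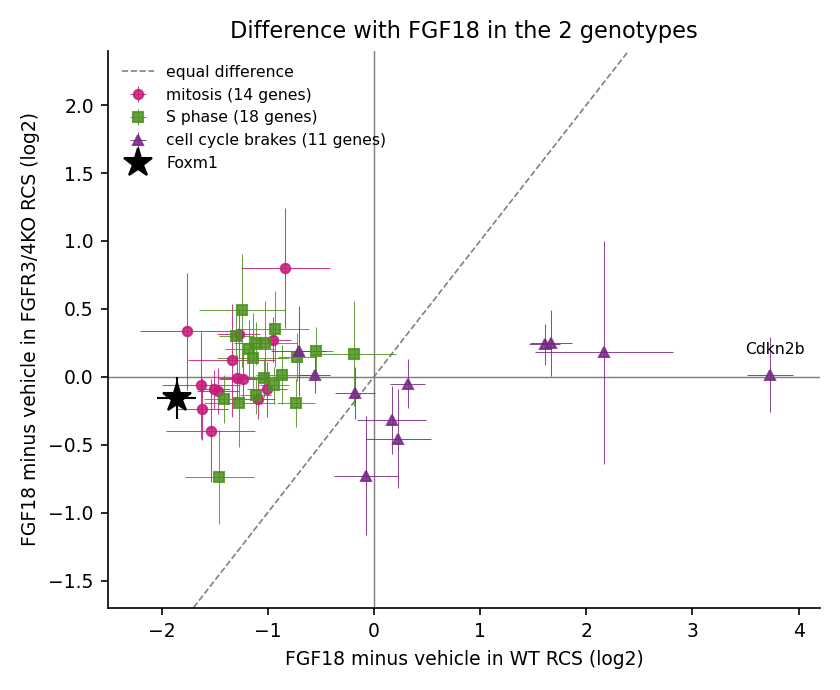
Log2 difference of FGF18 minus vehicle in WT RCS (x axis) and in FGFR3/4KO RCS (y axis) for Foxm1 (star), 14 mitosis genes, 18 S phase genes and 11 cell cycle brake genes; bars are standard errors and the dashed line marks equal differences. The mitosis and S phase genes and Foxm1 lie left of 0 in WT RCS and on both sides of 0 in FGFR3/4KO RCS, and Cdkn2b lies far right at 3.73, with 0.02 in FGFR3/4KO RCS.

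With FGF18 the genotypes stood apart in these genes, and with vehicle most of them did not pass the test. In FGFR3/4KO against WT RCS with FGF18, 23 of the 32 genes were higher and 0 lower, where 16.9% of all genes tested were higher and 17.0% lower. With vehicle, 1 of the 32 was higher and 2 were lower, where 8.0% of all genes were higher and 6.07% lower (edgeR's quasi-likelihood test). The median of the 32 log2 differences with vehicle was -0.13, with values from -0.79 to 0.51. The Foxm1 value of 0.67 (standard error 0.16) lay above each of them. Its value plus or minus the standard error overlapped that of Cenpf, the highest of the 32. The gene that was higher was Cenpf at 0.51 (standard error 0.15, edgeR's quasi-likelihood adjusted p = 0.025). With vehicle, its WT libraries held 271, 301 and 291 CPM and its knockout libraries 385, 348 and 479 CPM. The call was lost without any 1 of the WT vehicle replicates or FGFR3/4KO vehicle replicates 1 and 3 (adjusted p of 0.051 to 0.21), and the log2 difference without FGFR3/4KO vehicle replicate 3 was 0.36. The 2 genes that were lower were Rpa1, a subunit of the single-strand DNA binding protein, at -0.79 (standard error 0.18, edgeR's quasi-likelihood adjusted p = 0.0027) and Rfc2, another clamp loader subunit, at -0.53 (standard error 0.14, edgeR's quasi-likelihood adjusted p = 0.0095). The Rfc2 call was lost without FGFR3/4KO vehicle replicate 3 (adjusted p = 0.054). Without that library 1 of the 32 genes passed, and without WT FGF18 replicate 3 or FGFR3/4KO FGF18 replicate 1 it was 5. Cdk1 differed by 0.27 (standard error 0.18) and Spc25 by 0.22 (standard error 0.15) with vehicle, neither of which passed.

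**Figure D3:**
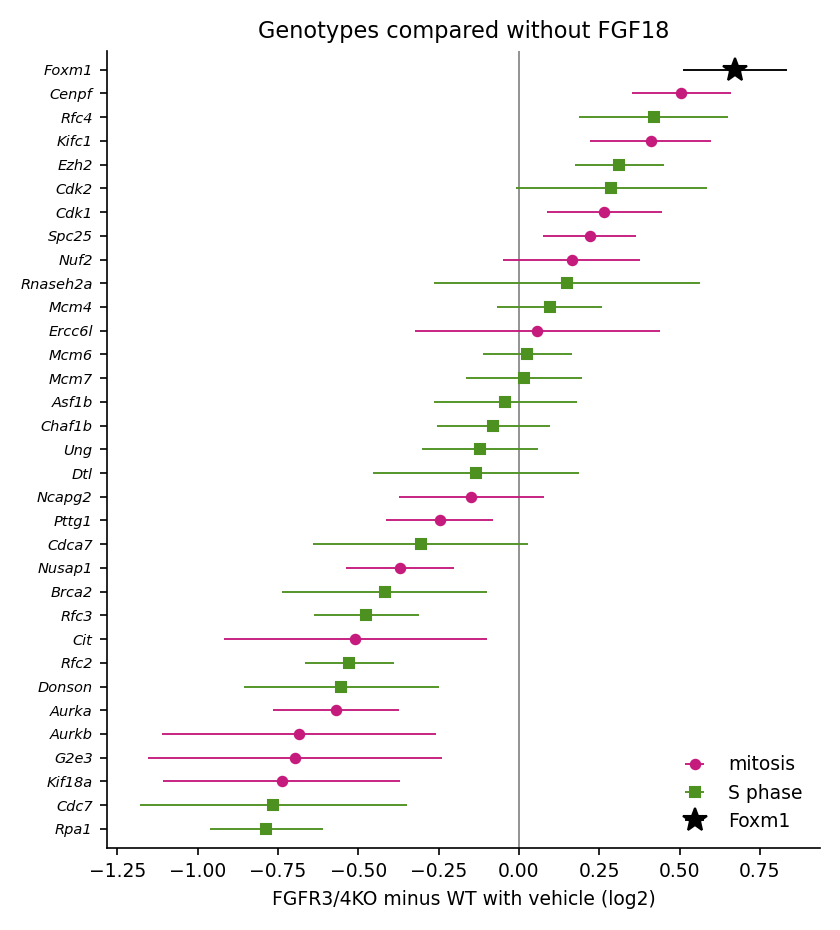
Log2 difference of FGFR3/4KO minus WT RCS with vehicle (x axis) for Foxm1 and the 32 mitosis and S phase genes (y axis, sorted by value); bars are standard errors. Foxm1 lies highest at 0.67, and the other genes lie from -0.79 (Rpa1) to 0.51 (Cenpf).

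Foxm1 was also set against the mitosis genes of its own library. The 14 mitosis genes summed to 2135 ± 129 CPM in WT vehicle, 942 ± 31.9 in WT FGF18, 2142 ± 62.9 in FGFR3/4KO vehicle and 2228 ± 113 in FGFR3/4KO FGF18 (SD, n = 3 each). Per 1000 CPM of this sum, Foxm1 stood at 62.8 ± 3.31 CPM in WT vehicle and 39.4 ± 3.98 in WT FGF18 (SD, n = 3 each). It stood at 102 ± 15.7 in FGFR3/4KO vehicle and 86.3 ± 6.58 in FGFR3/4KO FGF18 (SD, n = 3 each). The 2 FGFR3/4KO groups overlapped, at 87.8 to 119 with vehicle and 78.7 to 90.3 with FGF18, and no other pair of groups did. This ratio contains the Foxm1 levels by which the gene was selected and is a description with no test.

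**Figure D4:**
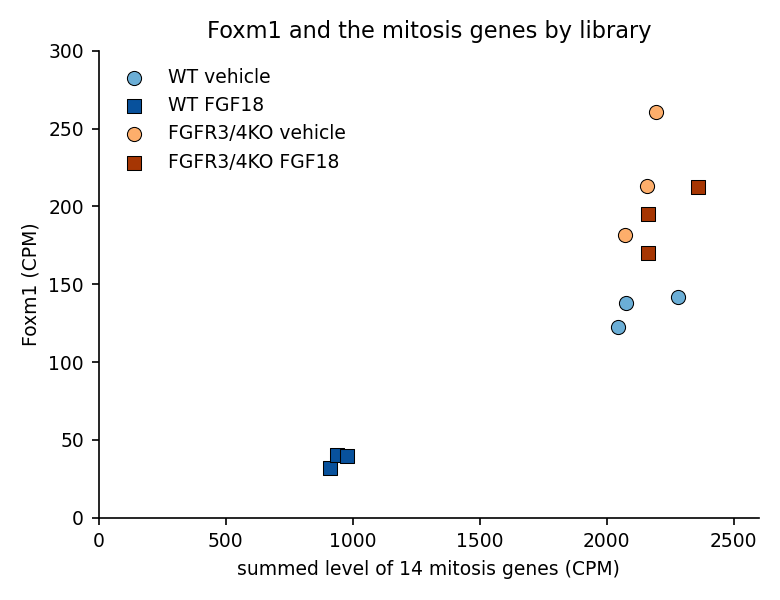
Foxm1 in CPM (y axis) against the summed CPM of 14 mitosis genes (x axis), 1 point per library. The WT FGF18 libraries lie at 912 to 976 CPM of summed mitosis genes, and the other 9 lie at 2045 to 2358, where the FGFR3/4KO libraries have more Foxm1 than the WT vehicle libraries.

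Genes known to act on Foxm1 or its protein were read next. Of 32 genes on a list of cyclin-dependent kinases, MuvB and coactivator subunits and parts of the APC/C, the ubiquitin ligase that destroys FOXM1 protein at mitotic exit, 12 had a symbol and 9 passed the filter. In WT RCS 3 of the 9 fell with FGF18 and none rose (median log2 difference -0.30, edgeR's quasi-likelihood test), where 12.8% of all genes tested fell and 12.9% rose. One of the 3 is Cdk1, already counted among the mitosis genes. Cdk2, the kinase of late G1 and S phase that phosphorylates FOXM1, fell by 0.93 (standard error 0.31, edgeR's quasi-likelihood adjusted p = 0.030), a call lost without WT vehicle replicate 1 or 3 or WT FGF18 replicate 1 or 3 (adjusted p of 0.055 to 0.15). Anapc7, an APC/C subunit, fell by 0.73 (standard error 0.19, edgeR's quasi-likelihood adjusted p = 0.0058). With vehicle it was lower in the knockout than in the WT line by a log2 difference of -0.83 (standard error 0.20, edgeR's quasi-likelihood adjusted p = 0.0064). Anapc4, another subunit, was higher there by 0.67 (standard error 0.19, edgeR's quasi-likelihood adjusted p = 0.016), a call lost without WT vehicle replicate 1 or 3 or FGFR3/4KO vehicle replicate 3 (adjusted p of 0.065 to 0.14). Lin54, the MuvB subunit that contacts the CHR element, had 3 to 39 reads per library and a log2 difference of -0.78 (standard error 0.47) with FGF18 in WT RCS, which did not pass. Anapc16 had -0.30 (standard error 0.26) and did not pass either.

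Among the brakes on the cell cycle, Cdkn2b rose most with FGF18. All 11 genes of this list of 18 that had a symbol passed the filter, and 4 rose and 2 fell in the WT line (edgeR's quasi-likelihood test). The share of members that fell, 18.2%, was near the 12.8% of all genes tested, and 36.4% rose against 12.9%. Cdkn2b, which encodes the p15 inhibitor of the kinases CDK4 and CDK6, stood at 31.9, 32.6 and 21.0 CPM with vehicle and at 293, 343 and 485 CPM with FGF18 in WT RCS. In the knockout line its vehicle libraries held 35.2, 25.5 and 41.6 CPM, and its FGF18 libraries 29.003, 41.7 and 36.8 CPM. The WT FGF18 libraries, lowest in Foxm1, were thus the highest in Cdkn2b. Its log2 difference in WT RCS was 3.73 (standard error 0.22, edgeR's quasi-likelihood adjusted p = 5.21e-13), a fold of 13.3, and the interaction was -3.71 (standard error 0.37, edgeR's quasi-likelihood adjusted p = 7.03e-08).

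Gadd45a, a stress response gene of the p53 pathway, rose by 1.67, and Btg1, an antiproliferative cofactor, by 1.61 on the log2 scale (adjusted p of 4.66e-07 and 4.03e-09 in edgeR's quasi-likelihood test). Ccng2, an atypical cyclin of resting cells, rose by 2.17 on 0 to 18 reads per library, a call lost without WT vehicle replicate 2 or 3 (adjusted p of 0.014 with all libraries and 0.058 and 0.14 without them in the same test). Without WT FGF18 replicate 2 it had too few reads to be tested. Cdkn1a, which encodes the p21 inhibitor, moved the other way. It stood at 300.0, 257 and 235 CPM with vehicle and at 190.2, 172 and 175 CPM with FGF18 in WT RCS, a fall of 0.55 on the log2 scale (standard error 0.14, edgeR's quasi-likelihood adjusted p = 0.0041). Sesn1, a p53 target, fell by 0.71, a call lost without any 1 of the 6 WT libraries (adjusted p of 0.043 with all libraries and 0.054 to 0.13 without 1 in the same test) and with DESeq2 (adjusted p = 0.12). In FGFR3/4KO against WT RCS with vehicle, E2f6, a repressor of the E2F family, was higher by 1.70 (standard error 0.30, edgeR's quasi-likelihood adjusted p = 2.00e-04). Sesn1 was lower there by a log2 difference of -1.31 (standard error 0.30, edgeR's quasi-likelihood adjusted p = 0.0036).

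The genes whose pattern was most like that of Foxm1 were sought among 1347 tested genes with a symbol and a mean of at least 10 CPM. The measure was Pearson's r of log2 CPM over the 12 libraries, which fall into separate clusters, so r mostly reflects the gap between WT FGF18 and the rest and is given with no p. The median r over the 1347 genes was -0.01, and 38 of them (2.82%) were above 0.9. The 10 highest were Tube1 (0.98), Cdk1 (0.98), Spc25 (0.97), Umps (0.97), Nmt1 (0.97), Kifc1 (0.96), Srsf2 (0.96), Abcf1 (0.96), Ppa1 (0.96) and Pkmyt1 (0.96). Cdk1, Spc25 and Kifc1, a kinesin of spindle assembly, are mitosis genes, and Pkmyt1 is the kinase that holds CDK1 in check. Tube1 encodes epsilon tubulin of the centrioles, Umps an enzyme of pyrimidine synthesis, Srsf2 a splicing factor, Nmt1 a myristoyltransferase, Abcf1 a translation factor and Ppa1 a pyrophosphatase. Tube1 stood at 29.9 to 33.3 CPM in WT vehicle, 13.1 to 16.0 in WT FGF18 and 41.4 to 43.8 in all FGFR3/4KO libraries. Its difference between genotypes with vehicle was 0.46 on the log2 scale (standard error 0.24) and did not pass (edgeR's quasi-likelihood adjusted p = 0.22). Over all genes tested, 8.0% were higher and 6.07% lower in that comparison. Of the 10 genes, 1 passed there, Ppa1, at 0.68 (standard error 0.13, edgeR's quasi-likelihood adjusted p = 4.52e-04). It stood at 757 ± 21.7 CPM in the WT and 1216 ± 106 CPM in the knockout line with vehicle (SD, n = 3 each). These genes were chosen for their likeness to Foxm1 over the same libraries, so their differences are a description.

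Over the 9 libraries without WT FGF18, r of these 10 genes with Foxm1 ran from 0.60 to 0.88, and none of them was among the 10 highest there. For the 14 mitosis genes the median r was 0.79 over 12 libraries and -0.08 over 9, and for the 18 S phase genes 0.77 and -0.34. Aurka, named after its value was seen, had 0.41 over 12 libraries and -0.86 over 9. The 5 lowest were Meltf (-0.96), Slc35e4 (-0.96), Flot1 (-0.96), Rpl23 (-0.95) and Phlda1 (-0.94).

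**Figure D5:**
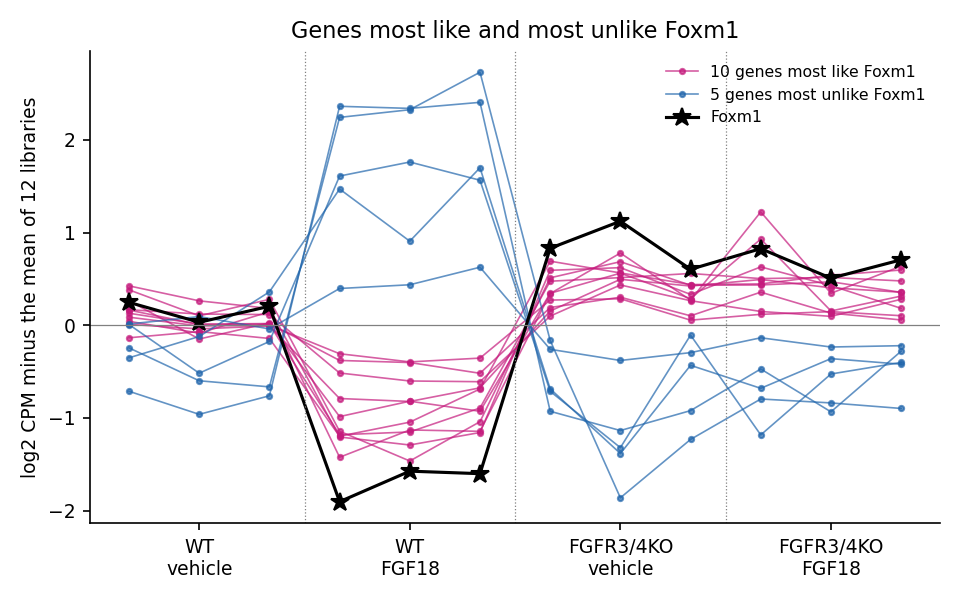
Log2 CPM minus the mean over 12 libraries (y axis) in each library, ordered by group (x axis; replicates 1 to 3 from left to right in each group), for Foxm1 (stars), the 10 genes with the highest r and the 5 with the lowest. Foxm1 and the 10 genes lie below 0 in all 3 WT FGF18 libraries and above 0 in all FGFR3/4KO libraries, and the 5 genes lie the other way.

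Other forkhead and FGF-linked genes were read beside Foxm1. Of 24 forkhead genes besides Foxm1 on the list, 3 had a symbol and 2 passed the filter. Foxn3, a forkhead repressor linked to cell cycle checkpoints, rose with FGF18 in WT RCS, where it stood at 41.4 ± 7.64 CPM without and 112 ± 5.16 CPM with it (SD, n = 3 each). The log2 difference was 1.46 (standard error 0.18, edgeR's quasi-likelihood adjusted p = 7.62e-07). In FGFR3/4KO RCS its difference was 0.24 (standard error 0.19) and did not pass. With vehicle, Foxn3 was higher in the knockout line by 0.62 (standard error 0.21, edgeR's quasi-likelihood adjusted p = 0.042). That call was lost with DESeq2 (adjusted p = 0.10), with the replicate number as a block (adjusted p = 0.062), and without WT vehicle replicate 2 or 3, WT FGF18 replicate 2 or any 1 of the FGFR3/4KO vehicle replicates (adjusted p of 0.058 to 0.21). Foxn4 had 2 to 14 reads per library and a difference of 0.22 (standard error 0.40) in WT RCS. Of 20 genes on a list of FGF response genes, 9 had a symbol and 5 passed the filter, and 2 of the 5 rose in the WT line (edgeR's quasi-likelihood test), where 12.9% of all genes tested rose. Phlda1, which is induced by growth factors, rose by 3.18 (standard error 0.15), and Etv5, an ETS factor downstream of FGF receptors, by 2.64 (standard error 0.29), with adjusted p of 4.56e-15 and 8.83e-08 in edgeR's quasi-likelihood test. In FGFR3/4KO RCS Phlda1 differed by 0.43 (standard error 0.16) and Etv5 by 0.78 (standard error 0.22) with FGF18. Neither passed there (adjusted p of 0.75 and 0.62 in the same test). Of the 5 genes, 3 lay above 0 and 2 below in that line. With vehicle, Etv5 was also higher in the FGFR3/4KO than in the WT line, by 2.33 (standard error 0.31, edgeR's quasi-likelihood adjusted p = 6.80e-06), at 56.1 ± 3.18 against 10.9 ± 2.49 CPM (SD, n = 3 each). Myc, Dusp1 and Spred1 did not pass in WT RCS, with differences of -0.34, 1.51 and 0.80.

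Chondrocyte genes were read as a check of the cell type. Of the 6 tested of a list of 16, 2 fell and 1 rose when the WT line received FGF18 (edgeR's quasi-likelihood test). These shares, 33.3% and 16.7% of few genes, stand beside 12.8% and 12.9% of all genes tested. Prelp and Fmod, small leucine-rich proteoglycans of the cartilage matrix, fell by 0.68 and 0.57 on the log2 scale (adjusted p of 3.74e-05 and 0.0021 in the same test). Mia, a protein secreted by chondrocytes, rose by 0.37, a call lost without WT vehicle replicate 2 or 3 or WT FGF18 replicate 2 (adjusted p of 0.016 with all libraries and 0.054 to 0.084 without them in the same test). Chad, a leucine-rich repeat protein of cartilage with 1 to 22 reads per library, differed by 0.83 (standard error 0.40), Sox9 by -0.08 (standard error 0.12) and Col11a2 by -0.07 (standard error 0.13), and none of these passed.

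With vehicle, 3 of the 6 chondrocyte genes were higher and 2 lower in the knockout line (edgeR's quasi-likelihood test), where 8.0% of all genes tested were higher and 6.07% lower. Fmod was higher by 1.01 (standard error 0.13, edgeR's quasi-likelihood adjusted p = 5.60e-06) and Prelp by 0.49 (standard error 0.11, edgeR's quasi-likelihood adjusted p = 0.0030). Col11a2, a chain of type XI collagen, was higher by 0.40 (adjusted p = 0.041 in the same test), a call lost with the replicate number as a block (adjusted p = 0.061) and without WT vehicle replicate 2 or 3, WT FGF18 replicate 2 or FGFR3/4KO vehicle replicate 1 or 2 (adjusted p of 0.059 to 0.21). Chad was lower by a log2 difference of -2.23 (standard error 0.68, edgeR's quasi-likelihood adjusted p = 0.025), with 7 to 10 reads in each WT library and 1 to 2 in each knockout library. That call was lost with DESeq2 (adjusted p = 0.067) and without WT vehicle replicate 1 or FGFR3/4KO vehicle replicate 1 or 3 (adjusted p of 0.054 to 0.17). Mia was lower by a log2 difference of -0.35 (adjusted p = 0.038 in edgeR's quasi-likelihood test), a call lost with the replicate number as a block (adjusted p = 0.054) and without WT FGF18 replicate 2 or any 1 of the vehicle libraries (adjusted p of 0.053 to 0.17). The summed level of the 6 genes lay between 6527 and 6845 CPM in WT vehicle, 5915 and 6302 in WT FGF18, 8102 and 8166 in FGFR3/4KO vehicle and 8408 and 8739 in FGFR3/4KO FGF18. Thy1, the tested marker of fibroblasts, was at 16.6 ± 2.10 CPM in WT vehicle and 11.03 ± 2.69 CPM in WT FGF18 (SD, n = 3 each), which did not pass. The part of these markers in the Foxm1 differences was not tested.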

How the data were processed

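The data are 12 QuantSeq 3′ mRNA libraries of RCS cells, 3 biological replicates for each combination of genotype (WT, FGFR3/4KO) and treatment (vehicle, FGF18). Per the study's methods, Trim Galore removed adapters, STAR placed the reads on rn6 and htseq-count assigned them to genes. The values that the authors deposited are raw read counts per gene and library, with 5 classes of uncounted reads that were left out of the totals. Versions are not given in the sources used here, and the methods name the Gencode v19 gene model while the identifiers are rat Ensembl genes.

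From the counts, edgeR 4.0.16 in R 4.3.3 kept 7378 of 32754 genes (filterByExpr, minimum count 10, minimum total 15). After TMM normalization, a group-means model of all 12 libraries was fitted, and calls rest on quasi-likelihood p-values adjusted by Benjamini-Hochberg, with a threshold of 0.05. Each library was used as a separate replicate, and all 12 share the estimate of spread. The chi-square of replicate pairs over genes, per degree of freedom, was 1.56 to 1.87 with vehicle and 2.00 to 5.67 with FGF18. In a model of only the groups compared, 12 of 13 mitosis and 17 of 18 S phase genes tested fell with FGF18 in WT RCS. Of all 7007 genes tested there, 967 fell. In FGFR3/4KO RCS 0 of the 32 list genes passed in that model. With FGF18, 22 of 31 list genes were higher in the knockout line, where 1069 of all 7246 genes were. Its calls between genotypes with vehicle are given below. DESeq2 1.42.0 was an alternative, beside the likelihood-ratio test, upper-quartile normalization, other filters, fewer groups in the model, the replicate number as a block, and leaving out each library in turn. The model was also run on simulated counts with 200 changed genes and equal spread in all groups. That run does not cover the larger chi-square of the FGF18 libraries.

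Symbols came from 1998 pairs of identifier and symbol in a supplementary table of the study, of which those columns only were read. That table is cut short, so lists are covered in part. Of the 1418 tested genes with a symbol, 13.7% fell and 10.4% rose with FGF18 in WT RCS. Named genes are Foxm1, the 10 genes most like and 5 most unlike it, Cdkn1a and Cdkn2b, and from each list the 6 members with the largest difference in WT RCS and those that passed in FGFR3/4KO RCS or between genotypes with vehicle. Foxm1, the lists and the rule were chosen with earlier results of these data known. Promoter windows are from RefSeq, GRCr8, and none of Foxm1 was used.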

Additional observations from a re-analysis of the deposited data

Results flagged for a closer look

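These genes are list members named for their difference in WT RCS or between genotypes with vehicle. Their difference with FGF18 was not the same in both genotypes by edgeR's interaction test (quasi-likelihood, Benjamini-Hochberg adjusted p under 0.05). Of the 32 mitosis and S phase genes 20 passed, and those not named by that rule, such as Kifc1 and Mcm4, are left out here. Values are log2 differences, FGFR3/4KO minus WT RCS. Among mitosis genes the interaction was 2.09 for Aurkb, 1.38 for Ncapg2, 1.42 for Spc25, 1.36 for Cdk1 and 0.93 for Cenpf. Among S phase genes it was 1.25 for Chaf1b, 1.60 for Rfc3, 1.38 for Asf1b, 1.03 for Rfc2, 0.73 for Rpa1 and 1.28 for Cdk2. The calls of Rpa1 and Cdk2 (adjusted p of 0.048 and 0.047) passed in 3 of the 12 fits that leave out 1 library, and that of Aurkb in 6. The calls of Rpa1 and Cdk2 were also lost with the replicate number as a block (adjusted p of 0.079 and 0.064) and with DESeq2 (adjusted p of 0.12 and 0.055). The Aurkb call held with the block, but DESeq2 gave no adjusted p for it and so made no call. Among genes that act on Foxm1 the interaction was 1.46 for Anapc7. The log2 difference of Anapc7 with FGF18 was -0.73 in WT RCS. In FGFR3/4KO RCS it was 0.73 (standard error 0.20), which did not pass (edgeR's quasi-likelihood adjusted p = 0.62). Among brakes the interaction was -3.71 for Cdkn2b, -1.42 for Gadd45a and -1.37 for Btg1. It was -1.22 for Foxn3, -2.74 for Phlda1 and -1.86 for Etv5, and among chondrocyte genes 0.74 for Prelp and 0.79 for Fmod.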

How the results depend on the processing

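Of 240 alternative values for 13 results, 231 kept their direction and stayed within the spread between replicates or within 1.5 times the main count. The Foxm1 log2 difference with FGF18 in WT RCS lay between -1.94 and -1.75 with 1 library left out and between -1.88 and -1.85 under the other settings. The number of mitosis and S phase genes that differed between genotypes with vehicle was 3. It was 5 with the likelihood-ratio test, 5 with upper-quartile normalization and 8 of 30 tested in a model of only the groups compared. The calls over all genes moved too. They were 590 higher and 448 lower of 7378 in the reported model, and 780 and 685 of 6250 with only the groups compared. The likelihood-ratio test gave 667 and 527 of 7378, and upper-quartile normalization 558 and 503. With 1 library left out, the number of mitosis and S phase genes lay between 1 and 5. Of the 10 genes most like Foxm1, 3 remained with Spearman's rho, 0 over the 9 libraries without WT FGF18 and 0 with deviations from the group means. The cause was not tested. With the replicate number as a block, 13 mitosis and 17 S phase genes fell in WT RCS, 0 of the 32 passed in FGFR3/4KO RCS and 19 had an interaction. Libraries with the same number did not deviate together over all genes (mean r of -0.03 over 18 pairs, against 0.02 over 36 pairs with different numbers). A mean over all genes at this depth cannot decide whether libraries of the same number shared a culture or processing batch. The model of only the groups compared gives no interaction. Depth limits genes with few reads, such as Aurkb. Over all genes, FGF18 in FGFR3/4KO RCS gave 0 calls in the reported model, 9 higher and 11 lower without a filter, 3 lower with the likelihood-ratio test, 2 lower in a model of only the groups compared, and 1 lower with the filter of 1 CPM in 3 libraries or without WT FGF18 replicate 3. Between genotypes with vehicle, 590 genes were higher and 448 lower, against 428 and 259 without FGFR3/4KO vehicle replicate 1 and 421 and 258 without replicate 3.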
